A study of Mus musculus with 4 samples.

Results

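The Fc gamma receptors bind the constant part of IgG antibodies and hand the signal of antibody-coated particles to the cell. The transcripts studied were those of 6 of the 32285 genes listed in the files, chosen by name: the activating receptors Fcgr1, Fcgr3 and Fcgr4, the inhibitory receptor Fcgr2b, the signalling chain Fcer1g and the neonatal receptor Fcgrt. All 6 were found, and each had UMIs in all 4 libraries. They were measured by droplet 3' single-cell RNA sequencing in cells of lung and synovium from female C57BL/6 mice of 4 months. TNF+ mice carry a human TNF transgene (line 3647, TNF-Tg), a model of erosive arthritis with pulmonary vascular disease, and TNF- mice were their littermates without it. Lungs of 3 to 5 mice, or synovial tissue of 5 to 10 mice, were combined within a genotype, so each genotype in each tissue is represented by 1 library and the 4 libraries have no replicates.

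No difference below has a replicate check, and no p-value or standard error is given. Intervals in parentheses are at 95% and cover counting error only, not the variation between mice or captures. Levels are in CPM, counts per 1000000: the UMIs (counted RNA molecules) of a gene scaled to that total over all genes in the same cells, and ratios are log2 of TNF+ over TNF-. A gene was read as past 2-fold at a log2 ratio of 1 or more in either direction, among genes with at least 20 UMIs over both libraries. Over a whole tissue, a change in the number of cells of a type and a change in RNA per cell cannot be told apart. The human transgene is not in the mouse reference, so the genotype labels were not checked by it.

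Fcgr1, Fcgr3 and Fcgr4 reach the cell surface with the Fcer1g chain, which carries the activating motif that recruits Syk, while Fcgr2b carries an inhibitory motif that recruits the phosphatase encoded by Inpp5d. Cells that engage IgG therefore weigh both kinds of receptor. Fcer1g also serves other receptors, such as the platelet collagen receptor, the high-affinity IgE receptor and receptors of NK cells. Fcgrt works apart from these: with B2m it binds IgG and albumin inside endosomes and returns them from degradation. In arthritis, immune complexes that engage activating receptors on macrophages and neutrophils are a known source of joint damage, and Fcgr4 is known as a receptor of nonclassical monocytes, macrophages and neutrophils.

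By the GENCODE vM21 annotation of build GRCm38, Fcgr2b (ENSMUSG00000026656) spans chromosome 1, positions 170958617 to 170976547, Fcgr4 (ENSMUSG00000059089) 171018920 to 171029761, Fcgr3 (ENSMUSG00000059498) 171051174 to 171064935 and Fcer1g (ENSMUSG00000058715) 171229572 to 171234365. These 4 genes are neighbours. Fcgr1 (ENSMUSG00000015947) lies on chromosome 3 at 96282909 to 96293969, and Fcgrt (ENSMUSG00000003420) on chromosome 7 at 45092990 to 45103851. Fcgr2b and Fcgr3 code for closely related outer parts: 17.7% of the 31-base words of the longest Fcgr3 transcript also occurred in an Fcgr2b transcript. In the last 400 bases of the longest Fcgr3 and Fcgr2b transcripts, where 3' counting draws its reads, 0 words were shared with any other member. Reads from the shared stretch could still not be assigned to either gene, so levels of the 2 receptors are compared between cells and not with each other, except as a UMI ratio. Fcgr2b and Fcgrt are each crossed by a counted gene on the other strand (Gm38204 and Gm45669).

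The upstream sequences of the 3 activating receptors are shown because these receptors were lower together in TNF+ nonclassical monocytes. Fcgr2b and Fcgrt were lower in these cells too, so the 3 were not alone in this. A link between sequence and level was not tested. They are the 250 bases before the RefSeq start on build GRCm38.p6, read 5' to 3' on the gene's strand, at chr3:96293970-96294219 (minus strand) for Fcgr1, chr1:171059404-171059653 (minus strand) for Fcgr3 and chr1:171018676-171018925 (plus strand) for Fcgr4. The Fcgr3 window lies inside the annotated gene, upstream of an inner start, and 27 of its bases fall in an exon. Capitals mark the core GAGGAA bound by PU.1, a factor of myeloid cells, searched on both strands (TTCCTC on the other).
Fcgr1: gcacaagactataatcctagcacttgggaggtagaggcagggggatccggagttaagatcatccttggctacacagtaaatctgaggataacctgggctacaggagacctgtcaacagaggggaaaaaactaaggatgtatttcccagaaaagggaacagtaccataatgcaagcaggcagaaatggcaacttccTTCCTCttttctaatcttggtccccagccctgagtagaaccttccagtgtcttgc
Fcgr3: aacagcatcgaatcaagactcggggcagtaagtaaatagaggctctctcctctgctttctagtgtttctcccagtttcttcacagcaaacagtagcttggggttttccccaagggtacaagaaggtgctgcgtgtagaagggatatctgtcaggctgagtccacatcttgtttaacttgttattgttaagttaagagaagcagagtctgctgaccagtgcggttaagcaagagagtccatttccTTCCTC
Fcgr4: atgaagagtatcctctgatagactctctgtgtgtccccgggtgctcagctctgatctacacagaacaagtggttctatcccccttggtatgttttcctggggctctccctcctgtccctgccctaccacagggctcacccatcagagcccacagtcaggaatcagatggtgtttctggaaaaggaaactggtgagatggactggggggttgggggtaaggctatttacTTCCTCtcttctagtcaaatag
The core occurred in the windows of Fcgr1, Fcgr3 and Fcgr4, at 55, 6 and 22 bases before the start, and not in those of Fcgr2b, Fcer1g and Fcgrt. Of the Fcgr2b window 187 bases fall in exons of that gene, so it is hardly an upstream sequence and is not comparable with the others. Of 32851 RefSeq windows of the same length, 23.3% held it. A match is a description of letters, and binding was not measured.

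Clusters were named from markers that hold none of the 6 genes, and the members were left out of the genes used for clustering. The study itself took Fcer1g as a marker of myeloid cells, and that use was not followed here. Nonclassical monocytes had Cd300e, Adgre4, Treml4 and Tgm3 among their 10 leading genes in both tissues. Synovial tissue macrophages had C1qa, C1qb, C1qc, Folr2 and Mrc1 among theirs, and lung tissue macrophages of these only C1qc. Kept cells numbered 6998 and 9174 in TNF- and TNF+ lung and 6200 and 3152 in TNF- and TNF+ synovium, with medians of 7137 to 12492 UMIs. Cells over 5000 genes were left out, following the study, and held 15.3% to 45.7% of the libraries' UMIs. TNF+ lung endothelium and mesenchyme were shallow, with medians of 774 and 801 UMIs where TNF- cells had 5628 and 6453. Barcodes with over 20% mitochondrial UMIs made up 1.41% to 3.78% of the other libraries and 17.6% of the TNF+ synovium. Kept cells of different libraries shared 3 to 16 barcodes per pair of libraries.

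Taken over all cells, 5 of the 6 transcripts were more abundant in TNF+ synovium cells and Fcgrt was less abundant. Fcer1g stood at 169 CPM (166 to 172) in TNF- and 970.1 CPM (959.5 to 981) in TNF+ synovium cells. Fcgr2b stood at 33.9 and 157 CPM, Fcgr3 at 20.5 and 86.3 CPM, Fcgr1 at 2.44 and 11.2 CPM and Fcgr4 at 4.61 and 9.93 CPM. The log2 ratios of these were 2.52 (2.49 to 2.55) for Fcer1g, 2.21 for Fcgr2b, 2.07 for Fcgr3, 2.20 for Fcgr1 and 1.11 for Fcgr4. Fcgrt went the other way, from 151 to 56.6 CPM (-1.41). Of all genes tested, 11.8% were at least 2-fold higher and 21.9% at least 2-fold lower, against 5 and 1 of the 6 members. With no filter on cells, or with UMIs per cell in place of CPM, 4 members were at least 2-fold higher.

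In the lung 2 of the 6 members were at least 2-fold higher, where 5.79% of all genes were, and 0 were 2-fold lower, where 25.5% of all genes were. Fcer1g stood at 349 CPM among TNF- and 1392 CPM among the TNF+ lung (1.99, interval 1.97 to 2.02), and Fcgr4 at 22.6 and 62.8 CPM (1.47, interval 1.38 to 1.57). Fcgr3 (0.74) and Fcgr2b (0.69) were higher by less, and Fcgr1 had nearly the same level in both lungs, 8.74 CPM (7.96 to 9.56) and 8.82 CPM (8.19 to 9.47). With no filter on cells, which lets in the barcodes over 5000 genes and also those under 200 genes or over 20% mitochondrial UMIs, the lung ratio of Fcgr1 was 0.77, that of Fcgr3 1.38 and that of Fcgr2b 1.29, and 4 members passed 2-fold. The median log2 ratio over all genes was -0.32 in the lung and -0.17 in the synovium. Scaled by the median of gene ratios instead, Fcgr1 stood at 0.33, Fcgr3 at 1.06 and Fcgr2b at 1.01 in the lung, with 4 members past 2-fold, and Fcgrt, lower by CPM, at -0.11.

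Myeloid cells held most receptor UMIs in every library. They held 81.7% of the summed UMIs of Fcgr1, Fcgr3, Fcgr4 and Fcgr2b in TNF- lung cells, 88.3% in TNF+ lung cells, 93.1% in TNF- synovium cells and 98.4% in TNF+ synovium cells. For the 3 activating receptors alone the myeloid share was between 91.9% and 99.2%. Fcgr2b, the inhibitory receptor, was shared with lymphocytes in the lung: they held 39.4% of its UMIs in TNF- and 25.1% in TNF+ lung cells, mostly in B cells (33.4% and 20%). The share of kept cells that were myeloid was 15% and 53.4% in TNF- and TNF+ lung, and 9.98% and 38.5% in TNF- and TNF+ synovium.

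**Figure D1:**
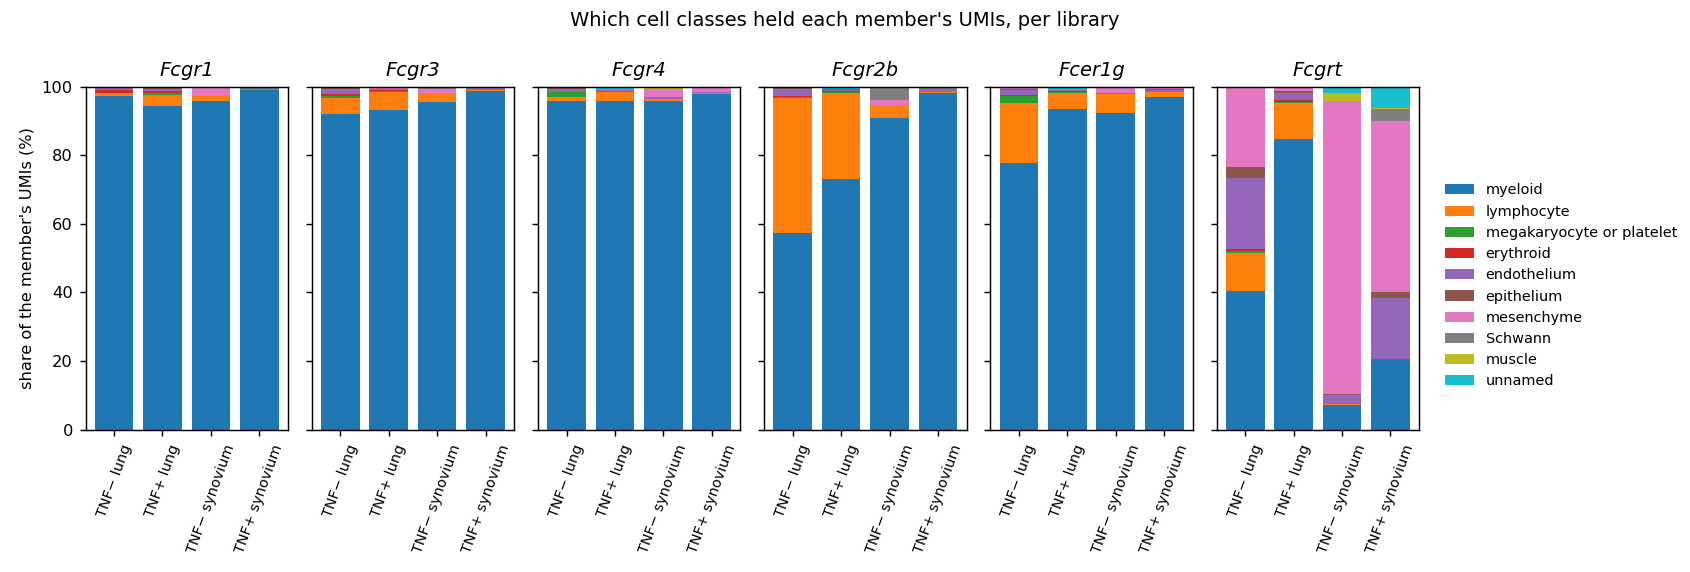
Stacked bars of the share (%) of each member's UMIs held by each cell class, 1 bar per library. Myeloid cells (blue) filled most of every bar for Fcgr1, Fcgr3 and Fcgr4, lymphocytes (orange) took 39.4% of Fcgr2b in TNF- lung cells, and mesenchyme (pink) held 85.5% of Fcgrt in the TNF- synovium.

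The whole-tissue ratios were set beside what the changed makeup of the libraries gives by arithmetic, with each class kept at its TNF- level and weighted by its share of TNF+ UMIs. In the synovium this gave log2 ratios of 1.87 for Fcgr1, 1.88 for Fcgr3, 1.88 for Fcgr4 and 1.89 for Fcgr2b, against measured 2.20, 2.07, 1.11 and 2.21. Fcer1g was measured above it in both tissues, 2.52 against 1.83 in the synovium and 1.99 against 1.34 in the lung. In the lung Fcgr1 was measured at 0.01 where the makeup gives 1.55, and Fcgr3 at 0.74 where it gives 1.49. Fcgr4 in the lung was measured at 1.47, close to the 1.54 of the makeup. The makeup holds broad classes only, and a shift among types inside a class is not part of it. Nonclassical monocytes, the cells highest in Fcgr4, were 278 of 1048 TNF- and 2782 of 4898 TNF+ lung myeloid cells. The closeness therefore does not mean that Fcgr4 levels within types were unchanged. Fcgrt was measured below the makeup in both tissues, -1.41 against -0.56 in the synovium and -0.43 against 0.46 in the lung.

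Fcgr1, the high-affinity receptor, was highest in classical monocytes and tissue macrophages. In the TNF- lung these stood at 129 CPM (114 to 146) and 107 CPM (85.5 to 133), whose intervals overlap, and in TNF+ lung cells at 43.2 CPM (38.4 to 48.3) and 79.4 CPM (70 to 89.8). Synovial tissue macrophages held 61.4 CPM (47.1 to 78.8) without and 38.3 CPM (31.4 to 46.1) with the transgene. The lung classical monocytes thus differed by -1.58 (-1.82 to -1.34) on the log2 scale, the lung tissue macrophages by -0.43 (-0.79 to -0.06) and the synovial tissue macrophages by -0.68 (-1.15 to -0.21). The alveolar macrophages of the 2 lung libraries lay mostly in different clusters: a shallow one held 45 TNF- and 895 TNF+ cells and a deeper one 103 and 70, and the class medians were 11480.5 and 817 UMIs. For Fcgr1 these cells, with 37 and 64 UMIs, did not differ beyond counting error (0.26, interval -0.34 to 0.89). T cells, which should lack Fcgr1, held 0.324 and 0.840 CPM in the lung.

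Nonclassical monocytes showed the widest Fcgr1 differences. In the lung Fcgr1 stood at 25.6 CPM (19.6 to 32.7) in 278 TNF- cells and at 2.61 CPM (2.06 to 3.27) in 2782 TNF+ cells, a log2 ratio of -3.29 (-3.79 to -2.78). In the synovium 18 UMIs in 89 TNF- cells stood against 1 UMI in 187 TNF+ cells, a ratio of -4.58 (-9.96 to -1.92) that fell below the 20 UMIs set for a call. Both tissues thus had the lower level in the TNF+ library. The TNF+ level of 2.61 CPM in the lung was still above the 0.840 CPM of T cells in that library. The lung value ranged from -3.58 to -3.05 over the alternatives of filtering, clustering and scaling. All lung nonclassical monocytes lay in 1 cluster, and over 90% of its cells came from the TNF+ library. It is among the clusters that may be that library rather than a type, which limits every lung ratio of these cells.

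Fcgr3, an activating receptor of low affinity, was highest in tissue macrophages in every library. They held 489 CPM in TNF- lung cells, 428 CPM in TNF+ lung cells, 328 CPM in TNF- synovium cells and 275 CPM in TNF+ synovium cells. The tissue macrophage ratios were small, -0.19 (-0.36 to -0.03) in the lung and -0.25 (-0.44 to -0.06) in the synovium. Above 0 lay lung alveolar macrophages (0.30 (0.11 to 0.50), and 0.20 (-0.06 to 0.45) within their deeper cluster) and lung dendritic cells (0.56, interval 0.08 to 1.07). Neutrophils of the lung stood after tissue macrophages in the TNF- library at 323 CPM (295 to 352) and held 245 CPM (219 to 275) in the TNF+ library. Nonclassical monocytes held 114 and 50.8 CPM in TNF- and TNF+ lung and 144 and 65.4 CPM in TNF- and TNF+ synovium. Their ratios were -1.16 (-1.35 to -0.97) and -1.14 (-1.54 to -0.74), so the TNF+ level was lower in both tissues and by nearly the same amount. NK cells, which use Fcgr3 for antibody-dependent killing, held 47 CPM (37.1 to 58.6) and 54.2 CPM (41.9 to 68.9) in the lung, which overlap.

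Fcgr4, the activating receptor that binds IgG2a/c and IgG2b in the mouse, was concentrated in nonclassical monocytes. These cells held 59.4% of its UMIs in TNF- lung cells, 90% in TNF+ lung cells, 74.4% in TNF- synovium cells and 53.4% in TNF+ synovium cells. Per cell type the level was lower in TNF+ cells: 293 CPM (272 to 315) against 164 CPM (159 to 169) in the lung and 264 CPM (233 to 298) against 133 CPM (114 to 154) in the synovium. Their log2 ratios were -0.84 (-0.95 to -0.72) and -0.99 (-1.27 to -0.71). The whole-tissue level was higher in TNF+ all the same, and nonclassical monocytes made up 3.97% of kept cells in TNF- and 30.3% in TNF+ lung cells, and 1.44% and 5.93% in the synovium. Lung neutrophils held 91.3 and 45.4 CPM (-1.01, interval -1.48 to -0.55), lung classical monocytes 73.8 and 13.7 CPM (-2.43, interval -2.81 to -2.05) and lung tissue macrophages 53.6 and 14.2 CPM (-1.92, interval -2.56 to -1.28). Alveolar macrophages held 64.1 and 44.1 CPM (-0.54, interval -0.95 to -0.13), but -0.46 (-1.01 to 0.08) within their deeper cluster and 0.15 with no filter on cells. All 5 lung myeloid types with 20 UMIs were thus lower in TNF+, with intervals below 0. Synovial tissue macrophages held 18 and 45 UMIs and did not differ beyond counting error, while synovial dendritic cells were higher on 23 and 12 UMIs (1.53, interval 0.38 to 2.59).

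Per-cell detection gave the same order once depth was equalised. With the UMIs of each cell drawn down at random to 1000 (thinning), an Fcgr4 UMI was seen in 24.8% of TNF- and 15% of TNF+ lung nonclassical monocytes, and in 23.9% and 11.8% of those of the synovium. An Fcgr3 UMI was seen in 10.1% and 4.54% in the lung and 17% and 3.74% in the synovium. An Fcer1g UMI was seen in 84.5% and 90.8%, and in 79.5% and 89.8%. Thinning left out 0 to 5 of these cells per library. Without thinning the Fcgr4 shares were 79.9%, 66.1%, 73% and 43.9% at median depths of 8172, 9599, 10284 and 6099 UMIs. Thinned T cells of the lung, taken as background for Fcgr3 and Fcgr4, showed Fcgr4 in 0.103% and 0.537% and Fcgr3 in 0.410% and 1.14%. They showed Fcer1g in 1.64% and 10.3%, at medians of 9265 and 9234 UMIs. Whether the Fcer1g share of T cells, larger in the TNF+ lung, is background or expression by some T cells was not tested. Lung fibroblasts, shallow in that library, likewise held Fcer1g at 37.7 and 352 CPM.

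**Figure D2:**
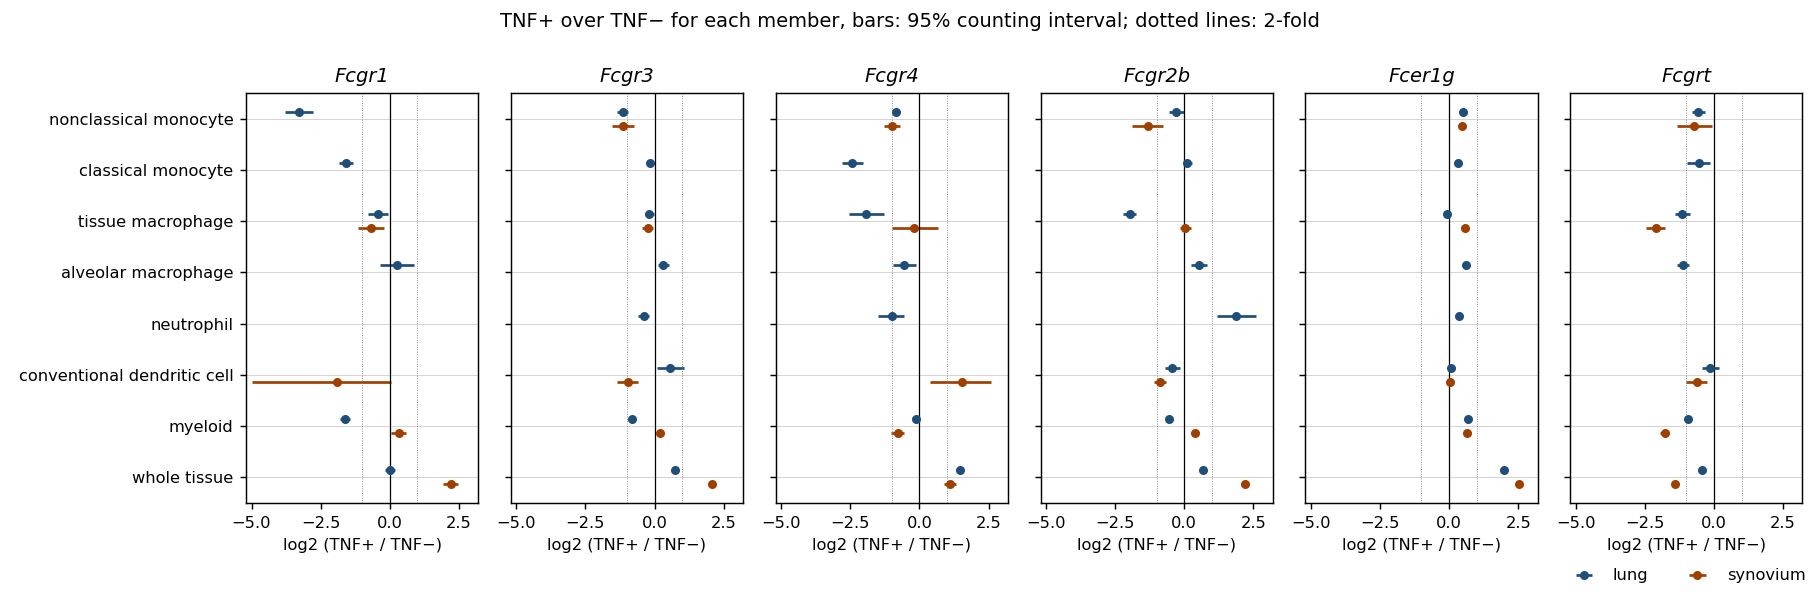
Log2 ratio of TNF+ over TNF- (x axis, bars are 95% counting intervals, dotted lines mark 2-fold) for each member in 6 myeloid types, the myeloid class and the whole tissue, lung in blue and synovium in brown, for values resting on at least 20 UMIs. In nonclassical monocytes Fcgr3, Fcgr4 and Fcgrt lay left of 0 and Fcer1g right of 0 in both tissues.

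Fcer1g, the shared signalling chain, was higher by CPM in the TNF+ nonclassical monocytes in which Fcgr3 and Fcgr4 were lower. It stood at 1968 and 2769.7 CPM in TNF- and TNF+ lung and at 2216 and 3035 CPM in the synovium. The log2 ratios were 0.49 (0.45 to 0.53) and 0.45 (0.38 to 0.53). It was also higher in TNF+ lung classical monocytes (0.31, interval 0.26 to 0.36) and neutrophils (0.37, interval 0.28 to 0.46), and in synovial tissue macrophages (0.56, interval 0.47 to 0.65). Alveolar macrophages, mostly shallow in the TNF+ library, had 0.62 (0.54 to 0.71) and, within their deeper cluster, 0.24 (0.13 to 0.35). Counted as UMIs per cell instead of CPM, the Fcer1g ratio was -0.20 in synovial nonclassical monocytes and -1.56 in alveolar macrophages, on the other side of 0, and 0.73 in lung nonclassical monocytes. By CPM, of 9 myeloid types with enough UMIs in either tissue, 6 had an interval above 0 and 0 below it. Fcer1g was also high in lung types outside the myeloid class: NK cells held 1739.7 and 1828 CPM, and megakaryocytes or platelets 1103 and 1829.5 CPM. NK cells did not differ beyond counting error (0.07, interval -0.01 to 0.15).

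Fcgr2b, the inhibitory receptor, had no common direction. Lung tissue macrophages stood at 331 CPM (292 to 373) and 83.8 CPM (74.1 to 94.3) in TNF- and TNF+ cells (-1.98, interval -2.23 to -1.73), on 62 and 236 cells. Synovial tissue macrophages did not differ beyond counting error, at 296 CPM (264 to 332) and 304 CPM (284 to 325). In nonclassical monocytes the Fcgr2b ratio was -0.30 (-0.57 to -0.01) in the lung and -1.33 (-1.90 to -0.78) in the synovium, lower in TNF+ cells of both. Lung neutrophils were higher, 15.8 CPM (10.1 to 23.5) against 57.5 CPM (44.9 to 72.5) (1.87, interval 1.18 to 2.60). The lung tissue macrophage value depends on how the cells are split, ranging from -0.48 at the coarser clustering to -2.14 with cells weighted equally. B cells of the lung stood at 66.8 CPM (61.8 to 72.2) and 87 CPM (81.7 to 92.6), while activating receptors in them stayed at or under 7.36 CPM. They lay mostly in different clusters, the first of 1211 TNF- and 87 TNF+ cells and the next of 58 and 1326, within which the Fcgr2b ratios were 0.22 (-0.19 to 0.60) and 0.34 (-0.16 to 0.89).

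Synovial dendritic cells, which made up 68% of the Fcgr2b UMIs of the TNF- synovium, held 255 CPM (243 to 267) in TNF- and 138 CPM (119 to 161) in TNF+ cells. Their Fcgr2b ratio was -0.88 (-1.11 to -0.65) and their Fcgr3 ratio -0.98 (-1.36 to -0.62). When each library was clustered by itself these were 0.38 and 0.48, so the direction rests on which cells are called dendritic. The largest store of Fcgr2b in the TNF+ synovium was a cluster led by Spp1 and Trem2 that fits classical monocytes and tissue macrophages alike, with 12 TNF- and 715 TNF+ cells. It held 375 CPM (363 to 386) and 76.8% of the Fcgr2b UMIs, 68.1% of those of Fcgr1 and 62.3% of those of Fcgr3. With under 50 TNF- cells no ratio was formed. Its near absence from the TNF- library means that cell type and library cannot be told apart for it.

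Fcgr2b UMIs were also found in Schwann cells of the synovium. They stood at 229.7 CPM (187 to 280.0) in 69 TNF- and 27.3 CPM (18 to 39.7) in 235 TNF+ cells, a ratio of -3.07 (-3.74 to -2.45). The split by cluster showed a different picture. A cluster led by Gfra3, Grik2 and Cdh19 held 95 UMIs in 55 TNF- cells and 22 UMIs in 20 TNF+ cells, or 269 CPM (218 to 329) and 221 CPM (139 to 335), which overlap. This cluster held most of the TNF- and few of the TNF+ Schwann cells. Fcer1g had 1 and 0 UMIs in it, so a myeloid marker was at or near 0 there.

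Fcgrt, the neonatal receptor, followed a map of its own. In the TNF- synovium fibroblasts held 84% of its UMIs at 194 CPM (190.2 to 198), next to tissue macrophages at 183 CPM (158 to 212), which overlap. In the TNF+ synovium fibroblasts held 47% at 151 CPM (141 to 162). The fibroblast ratio was -0.36 (-0.46 to -0.26), and fibroblasts made up 53.2% and 14.4% of kept cells. The fibroblasts of the 2 libraries lay in different clusters: 1 cluster held 2 TNF- and 229 TNF+ cells, while the largest held 1330 and 50. Within the 3 clusters that held most TNF- fibroblasts the ratios were -0.07 (-0.42 to 0.26), 0.20 (-0.06 to 0.45) and -0.01 (-0.55 to 0.49), all with intervals that span 0. Among myeloid types tissue macrophages had the lowest ratios, -2.11 (-2.45 to -1.77) in the synovium (183 and 42.4 CPM) and -1.15 (-1.41 to -0.88) in the lung (234 and 105 CPM). Alveolar macrophages, whose TNF- interval overlapped that of tissue macrophages, held 285 and 132 CPM (-1.11, interval -1.33 to -0.90), and -0.51 (-0.75 to -0.26) within their deeper cluster. All 8 myeloid types with enough UMIs were lower in TNF+, 7 of them with intervals below 0. The eighth, lung dendritic cells (-0.13, interval -0.43 to 0.18), stood at 0.27 without the highest Scrublet scores (a doublet score). Lung fibroblasts stood at 152 and 42.7 CPM (-1.83, interval -2.62 to -1.14), on 487 and 17 UMIs. Lung endothelium, in which Fcgrt is known to guard IgG, held 37 and 38.8 CPM (0.07, interval -0.35 to 0.46). Its TNF- and TNF+ cells lay in different clusters, 1414 and 5 in the largest TNF- one and 9 and 256 in the largest TNF+ one, which was shallow, so like cells were not compared.

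**Figure D3:**
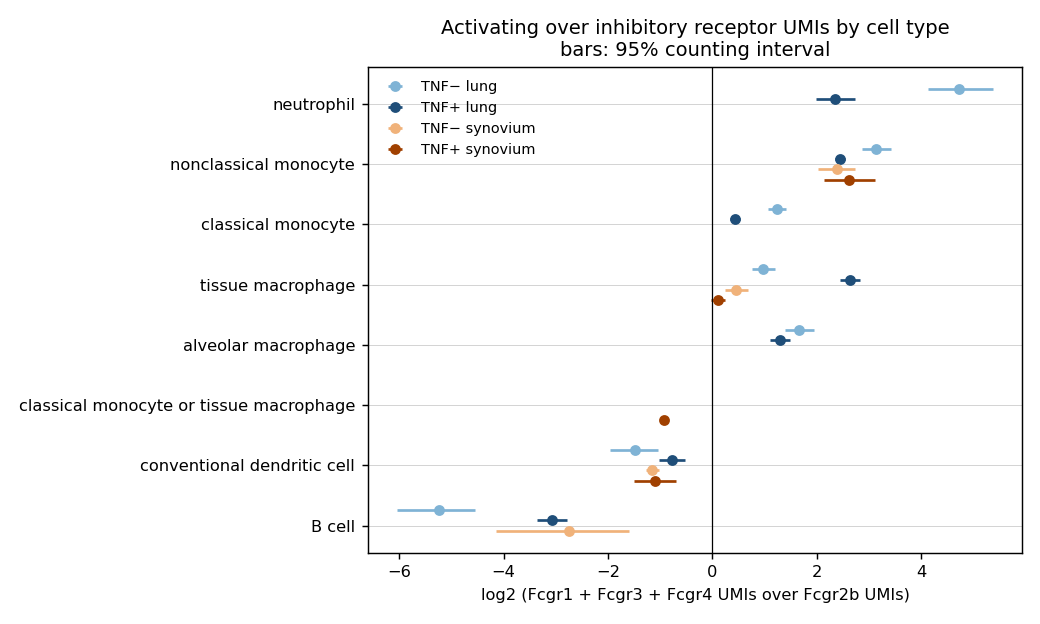
Log2 of Fcgr1, Fcgr3 and Fcgr4 UMIs over Fcgr2b UMIs (x axis, bars are 95% counting intervals) by cell type and library. Neutrophils and nonclassical monocytes lay right of 0, dendritic cells, B cells and the Spp1 and Trem2 cluster left of it.

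The balance of activating over inhibitory UMIs differed widely between cell types. Nonclassical monocytes had 8.80 and 5.44 activating UMIs per Fcgr2b UMI in TNF- and TNF+ lung and 5.20 and 6.09 in the synovium. Lung neutrophils had 26.3 and 5.08, a log2 difference of -2.37 (-3.06 to -1.68). Dendritic cells had 0.357, 0.582, 0.451 and 0.468, and B cells of the lung 0.0264 and 0.119. Lung tissue macrophages moved from 1.97 to 6.22 (1.66, interval 1.38 to 1.95) and lung classical monocytes the other way, from 2.36 to 1.35 (-0.81, interval -1.005 to -0.61). The Fcgr2b ratio of lung tissue macrophages ranged from -0.48 to -2.14 with the split and weighting of cells. That limit holds for their balance and their co-detection as well. Synovial tissue macrophages stood at 1.37 and 1.08 (-0.34, interval -0.60 to -0.09). Over the synovial myeloid class the ratio was 0.855 and 0.688, but without the Spp1 and Trem2 cluster it was 0.860 and 1.26. In the lung it was 3.32 and 3.13. In cells thinned to 5000 UMIs, at least 1 activating UMI together with an Fcgr2b UMI was seen in 57.9% of TNF- and 23.1% of TNF+ lung tissue macrophages, against 56.8% and 51.5% of those of the synovium.

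Over the whole myeloid class the ratios mixed these types. In the lung they were -1.62 (-1.79 to -1.44) for Fcgr1, -0.83 (-0.90 to -0.75) for Fcgr3, -0.11 (-0.20 to -0.02) for Fcgr4, -0.54 (-0.64 to -0.44) for Fcgr2b, 0.68 (0.65 to 0.70) for Fcer1g and -0.95 (-1.05 to -0.84) for Fcgrt. With no filter on cells they were -0.59, 0.08, -0.08, 0.22, 0.75 and -0.96, so the class ratios of Fcgr3 and Fcgr2b changed side. Those of lung nonclassical monocytes stayed at -3.26 for Fcgr1, -1.16 for Fcgr3 and -0.86 for Fcgr4. In the synovium the class ratios were 0.32 for Fcgr1, 0.19 for Fcgr3, -0.79 for Fcgr4, 0.39 for Fcgr2b, 0.66 for Fcer1g and -1.79 for Fcgrt. Without the Spp1 and Trem2 cluster they were 0.16, 0.26, 0.28, -0.30, 0.71 and -1.06, so those of Fcgr4 and Fcgr2b changed side. 1 member was at least 2-fold lower in each myeloid class, Fcgr1 in the lung and Fcgrt in the synovium, and 0 were 2-fold higher. Of all genes tested 16.7% (lung) and 20% (synovium) were 2-fold lower, and 4.36% and 9.36% were 2-fold higher.

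In nonclassical monocytes 2 of the 6 members in the lung (Fcgr1 and Fcgr3) and 2 of 5 in the synovium (Fcgr3 and Fcgr2b) were at least 2-fold lower, where 8.29% and 9.31% of all genes were. 0 members were 2-fold higher, where 5.57% and 7.01% of all genes were. The median log2 ratio of the members was -0.70 in the lung and -0.99 in the synovium, beside -0.06 and -0.07 over all genes tested. The lung cells of this type lay in a cluster that came mostly from the TNF+ library, so type and library are not fully told apart there.

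The downstream genes of the pathway were followed in the myeloid class from a list of 55 genes. In the synovium this class includes the Spp1 and Trem2 cluster, with 12 TNF- and 715 TNF+ cells. The list is not given without it. Of 8 proximal kinases and adaptors, 0 passed 2-fold in either tissue: Lyn, Syk and Fgr had ratios of 0.11, -0.16 and 0.34 in the lung and -0.63, 0.16 and -0.79 in the synovium. Of 12 effectors of phagocytosis and the oxidative burst, 2 were 2-fold higher in the lung (Cybb, the catalytic oxidase subunit, 1.21, and Ncf4, 1.10). In the synovium Ncf4 was higher (1.25) and Dock2 (-1.60), Rac2 (-1.46) and Pik3cd (-1.80) were lower. Of 7 inhibitors of the signal, Cblb stood at 1.01 in the lung and -1.14 in the synovium, on opposite sides, and Inpp5d, the partner of Fcgr2b, at 0.07 and -0.19. Tyrobp, the sister adaptor of Fcer1g, stood at -0.04 in the lung and 0.25 in the synovium, where Fcer1g stood at 0.68 and 0.66. Of 3 sister adaptors on the list, 1 was 2-fold higher in the synovium and 0 passed 2-fold in the lung.

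Receptors that signal through Fcer1g without binding IgG made up 3 of the 5 list genes that were 2-fold higher in the synovium. Here too the Spp1 and Trem2 cluster, nearly absent from the TNF- library, was part of the class. Clec4e, which senses mycobacterial and damage-derived lipids, stood at 124 CPM among TNF- and 1019 CPM among TNF+ cells (3.04), Clec4d at 114 CPM among TNF- and 704 CPM among TNF+ cells (2.62) and Clec4n at 32.6 CPM among TNF- and 337 CPM among TNF+ cells (3.37). In the lung Clec4e was higher (1.35), Clec4n was near level (0.22) and Clec4d was lower (-0.57). Of the 8 genes of this role tested in the lung, 3 were 2-fold higher and 2 were 2-fold lower. Pirb, which the list holds in this role although it is an inhibitory receptor with motifs of its own, stood at 0.20 in the synovium and 0.27 in the lung. Over the list, 5 of 40 tested genes were 2-fold higher and 8 lower in the synovium, with a median of -0.30, and 10 of 50 higher and 4 lower in the lung, with a median of 0.19. Over all genes tested the shares were 9.36% higher and 20% lower for the synovium, with 4.36% higher and 16.7% lower for the lung. Of the 10 lung genes 3 were IgG heavy chains, and whether their UMIs in myeloid cells are background was not tested. Of the Fc receptors outside the family, 4 of 5 tested were 2-fold lower in the synovium and 0 were 2-fold higher. In the lung 1 of 8 tested was 2-fold higher and 2 were 2-fold lower. B2m, the light chain of the Fcgrt receptor, stood at -0.51 in the synovium and 0.26 in the lung.

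IgG heavy chain transcripts, which code for the ligand, also differed in the lung. Ighg2b stood at 138 CPM in 21 plasma cells of the TNF- lung and 4035 CPM in 144 of the TNF+ lung, and Ighg1 at 94.9 and 2444 CPM. Ighg2c stood at 10.9 and 41.7 CPM. Ighg3 went the other way, from 456 CPM (293 UMIs) in the TNF- to 0 UMIs in the TNF+ plasma cells. In lung B cells Ighg3 was higher in TNF+, at 3.52 CPM (34 UMIs) and 9.05 CPM (102 UMIs). The pooled plasma cell levels differ from means of the per-cell levels. Those means were 123 and 2102 CPM for Ighg2b, 47.7 and 2166 CPM for Ighg1, and 10.8 and 127 CPM for Ighg2c. The 21 TNF- cells are fewer than the 50 set for a ratio. In the TNF+ lung nonclassical monocytes and T cells held nearly equal low levels of Ighg2b, 9.70 and 7.70 CPM, and of Ighg2c, 6.91 and 8.40 CPM. Whether these UMIs are background or expression by the cells was not tested. The 3 of 4 heavy chains past 2-fold in lung myeloid cells are therefore not read as expression by them.

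Over 52 profiles of cell types in a library, each with at least 50 cells, the transcripts were grouped by Pearson correlation of log2(CPM + 1) with 13863 genes of at least 500 UMIs, as a description, since profiles share libraries and depth. Fcer1g was closest to Tyrobp, Itgam, Itgb2, Cyba and Cd300c2 (r from 0.98 to 0.89), led by the sister adaptor Tyrobp. Fcgr4 was closest to Cd300ld, C130050O18Rik, Tlr13, Cd300lb and Sirpb1c (0.94 to 0.91), Fcgr3 to Lilrb4a, Tyrobp, Adgre1, Igsf6 and Mpeg1 (0.92 to 0.90), and Fcgr1 to Msr1, Cd68, Ms4a6d, Trem2 and Adgre1 (0.91 to 0.84). Fcgr2b was closest to Ctss, Rassf4, Clec12a, Clec4a2 and Pld4 (0.84 to 0.82). Fcgrt was closest to Lima1, Soga1, Agmo, Slc39a1 and Pros1 (0.82 to 0.76). Among the members Fcgr3 and Fcer1g were most alike (r = 0.91) and Fcgrt stood apart, at -0.06 with Fcer1g and 0.37 with Fcgr1.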

How the data were processed

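The authors deposited raw UMI counts per gene and barcode for each library, made per the submitters' processing notes with Cell Ranger 7.0.1 on mm10, at the default parameters per the study's methods, which in this version also count intronic reads. The counts carry no normalization, and cell types were rebuilt here. The members, the gene lists and the tests were chosen with earlier results of these data known.

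Cells with 200 to 5000 genes and at most 20% mitochondrial UMIs were kept, the limits of the study. Each tissue's 2 libraries were clustered together (10000 UMIs per cell, log scale, 2000 variable genes without the members and the pathway list, 30 components, 20 neighbours, Leiden at resolution 0.8, scanpy 1.11.5 and leidenalg 0.10.2). This gave 29 synovial and 36 lung clusters, of which 11 and 13 were over 90% from 1 library and may be that library rather than a type. Clusters were named from marker lists that hold no member, with at least 3 markers 2-fold above the other clusters, by a naming threshold set after the data were seen. A cell type name stands for cells like that type.

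UMIs were summed per library and type of at least 50 cells. Intervals are exact Poisson for CPM, Clopper-Pearson for shares and conditional binomial for log2 ratios, at 95% and for counting error only. The interval of a difference between 2 UMI ratios uses the normal approximation of the log counts. A ratio against 0 was set against a floor of 3 UMIs. Detection shares used cells thinned to 1000 UMIs, and co-detection 5000. No doublet caller was applied in the values reported, and 1 alternative dropped the cells with the top Scrublet scores (0.8% of cells for every 1000 barcodes).

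The genes named were the 6 members in every class, up to 4 members per role of the pathway list in order of UMIs with the count past 2-fold per role, and the 5 genes most like each member. Pik3cd, Rac2 and Ncf4 were named after their values were seen. Some items withheld for evaluation are not reported here. Counts were simulated for the synovial myeloid comparison over 13051 genes. Of 200 genes changed 3-fold, 98% were called past 2-fold, and of unchanged genes 1.65% were. With no replicates, variation between mice or captures was not measured, and these shares do not cover it. They are therefore not error rates for the comparisons reported.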

Additional observations from a re-analysis of the deposited data

Results flagged for a closer look

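The TNF+ over TNF- ratios of the myeloid class lay on opposite sides of 0 in the 2 tissues, with intervals clear of 0, for Fcgr1 (0.32 in the synovium, -1.62 in the lung), Fcgr3 (0.19 and -0.83) and Fcgr2b (0.39 and -0.54). In conventional dendritic cells the same held for Fcgr3, -0.98 in the synovium and 0.56 in the lung. With each library clustered by itself these were 0.48 and 1.19, on the same side, and with cells weighted equally the lung value was -0.16. With no filter on cells the lung myeloid ratios of Fcgr3 and Fcgr2b were 0.08 and 0.22, on the synovial side, and without the Spp1 and Trem2 cluster the synovial Fcgr2b ratio was -0.30. With cells weighted equally the synovial myeloid ratios of Fcgr1 and Fcgr3 were -0.21 and -0.03. These differences between tissues were not tested, since each arm is 1 library. The myeloid class of each tissue is made of different types, and by CPM the nonclassical monocytes of both tissues gave the same side for all 6 members.

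Barcodes over 5000 genes, which the comparisons leave out, also held receptor UMIs, in the lung at levels above those of the TNF- library. In the TNF+ lung they stood at 1235 CPM for Fcer1g, 215 for Fcgr3, 145 for Fcgr2b, 33.1 for Fcgr4 and 25.1 for Fcgr1, against 342, 66.4, 45.6, 17.6 and 10.7 in the TNF- lung. These 1909 TNF+ barcodes held 72.2% of the Fcgr3 UMIs of their library. In the TNF+ synovium such barcodes held Fcer1g at 285 CPM against 240.4 in the TNF- synovium, while the receptors were lower: Fcgr3 17.8 against 46.1, Fcgr2b 47.8 against 58.9, Fcgr4 1.75 against 2.23 and Fcgr1 0.560 against 2.02 CPM. Whether they are large cells or doublets was not tested.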

How the results depend on the processing

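With 1 library per group nothing here measures variation between mice, and depth limits Fcgr1 and the rarer types. No paired analysis was possible because the mice were pooled into 1 library per genotype and tissue. Without the filter on cells, the myeloid share of receptor UMIs was 84.9%, 92.4%, 90.5% and 97.2% (lung without and with the transgene, then synovium likewise), the activating over inhibitory ratio of myeloid cells was 2.66 and 2.26 in the TNF- and TNF+ lung and 0.658 in the TNF+ synovium, 4 members passed 2-fold upward over the whole lung and 0 downward in lung myeloid cells. The cause was not tested. Removing high Scrublet scores gave shares of 88.9% (TNF+ lung), 94.4% (TNF- synovium) and 99% (TNF+ synovium) and a ratio of 3.57 in the TNF- lung. The stricter filter gave a share of 98.7% in the TNF+ synovium. Clustering each library by itself gave 83.3% in the TNF- lung and 93.9% in the TNF- synovium, and turned the synovial dendritic cell ratio of Fcgr1 to 1.08. Median-of-ratios scaling gave 4 members past 2-fold upward over the whole lung. UMIs per cell gave 2 members lower in synovial myeloid cells, 4 in synovial nonclassical monocytes and 1 in lung nonclassical monocytes. Leaving out the Spp1 and Trem2 cluster, chosen after seeing the data, turned the TNF+ synovial ratio to 1.26. Myeloid cells with an Fcgr3 UMI, in the same order of libraries, were 18.5, 9.47, 14.8, 14.1% at 1000 UMIs, 9.64, 5.92, 7.92, 6.51% at 500, 31.7, 16.3, 21.2, 25.5% at 2000 and 63.9, 40.2, 58.3, 63.3% without thinning, so the shares depend on the depth and the order of TNF- and TNF+ synovium does too. Synovial nonclassical monocytes and lung classical monocytes were not named under every clustering and then gave no value. Of the values that answer a comparison, taken under each alternative, 139 were classed as unchanged, 32 moved and 1 turned. The unchanged ones include some counts that differed. With no filter on cells 4 members were 2-fold higher over the whole synovium, in place of 5. In synovial nonclassical monocytes 3 members were then 2-fold lower, in place of 2. Of those of single genes 546 stayed, 208 moved and 1 turned.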

Other observations

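Basophils or mast cells of the lung, too few for a ratio (20 TNF- and 8 TNF+ cells), held Fcer1g at 1422 and 1546 CPM and Fcgr3 at 269.6 and 162 CPM. Synovial neutrophils, 27 TNF- and 23 TNF+ cells, held Fcgr3 at 258 and 441 CPM and Fcgr4 at 54.2 and 63 CPM. Synovial classical monocytes, 48 TNF- and 24 TNF+ cells, held Fcgr1 at 67.3 and 6.15 CPM and Fcgr2b at 211 and 49.2 CPM. Ighg3, the IgG3 heavy chain, was found at 3887 CPM in 62 B cells of the TNF- synovium and at 9.26 CPM in 35 of the TNF+ synovium. These rest on 2971 and 2 UMIs. The mean of the per-cell levels in the TNF- cells was lower, 1364 CPM, so cells with many UMIs weigh heavily in the pooled level. Whether plasma cells lay among them was not tested.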
